A study of Homo sapiens with 12 samples.

Results

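The 10 microRNA strands described here are both arms of 5 hairpins, miR-671, miR-1307, miR-32, miR-340 and miR-574, out of 952 strands in the deposited tables, of which 753 were in both. The hairpins were taken by name, with all 10 strands present in both tables, to set the change of the 5p arm against that of the 3p arm in each. They were picked with the results of both comparisons known, so the changes and arm differences given here describe these hairpins and carry no test. The series used K562, a human erythroleukaemia cell line, in 4 groups of 3 libraries each: ZSWIM8 KO cells (genotype ZSWIM8-/-, no guide RNA received), WT cells (wild type, no guide RNA received), sgCYRANO cells (guide RNA targeting CYRANO, a long non-coding RNA) and sgNT cells (non-targeting guide RNA). The sources used here do not say whether the knockout line is 1 clone. Small RNA was sequenced from total RNA, and the depositors describe the libraries as biological triplicates. ZSWIM8 KO was compared with WT, and sgCYRANO with sgNT, so the comparisons share no libraries.

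A microRNA hairpin is cut by Drosha and Dicer into a short duplex, and Argonaute keeps mostly 1 strand of it, the guide, while the passenger strand is degraded. Strands whose 5′ end is loosely paired or begins with U or A tend to be kept. A change in transcription or processing of the hairpin acts on both arms, whereas a change in the decay of a strand acts on 1. A change in which strand Argonaute keeps bears on both arms. ZSWIM8 is the substrate receptor of a ubiquitin ligase that acts on Argonaute when a microRNA pairs extensively with a trigger RNA, which leads to decay of that microRNA. CYRANO is such a trigger for miR-7-5p.

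The mature strands are shown because the seed, bases 2 to 8, sets what each arm can pair with. Sequences are from RefSeq on GRCh38.p14, where all 10 names matched, and the seed is in capitals.
hsa-miR-671-5p: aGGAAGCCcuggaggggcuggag
hsa-miR-671-3p: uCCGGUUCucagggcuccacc
hsa-miR-1307-5p: uCGACCGGaccucgaccggcu
hsa-miR-1307-3p: aCUCGGCGuggcgucggucgug
hsa-miR-32-5p: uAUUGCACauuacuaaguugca
hsa-miR-32-3p: cAAUUUAGugugugugauauuu
hsa-miR-340-5p: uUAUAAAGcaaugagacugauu
hsa-miR-340-3p: uCCGUCUCaguuacuuuauagc
hsa-miR-574-5p: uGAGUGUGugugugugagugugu
hsa-miR-574-3p: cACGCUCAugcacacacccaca
No pair among the 10 strands shared a seed, and each mature sequence lay at 1 locus of the RefSeq table, so none of these strands can draw reads from a second annotated hairpin of identical sequence. The strands were 21 to 23 bases long. Levels are counts per 1000000 reads of the listed microRNAs (CPM), so ratios between arms are ratios of reads. How evenly strands of different sequence were recovered in the libraries was not tested.

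A hairpin for each of 3 patterns in ZSWIM8 KO is shown, with both mature arms in capitals: arms called in opposite directions (miR-671), 1 arm called (miR-32) and both arms higher to a similar extent (miR-574).
miR-671: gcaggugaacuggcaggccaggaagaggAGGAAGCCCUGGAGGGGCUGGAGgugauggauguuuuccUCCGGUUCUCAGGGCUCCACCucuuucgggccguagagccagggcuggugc
miR-32: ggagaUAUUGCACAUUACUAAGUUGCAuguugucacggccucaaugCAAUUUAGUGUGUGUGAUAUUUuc
miR-574: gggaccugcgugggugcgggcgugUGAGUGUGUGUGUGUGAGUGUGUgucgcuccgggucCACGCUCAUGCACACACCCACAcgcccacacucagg
All 5 hairpins lie on the sense strand of a protein-coding gene of GENCODE 29, and no other RefSeq hairpin starts within 100 kb of any of them. MIR671 lies at chr7:151238421-151238538 (+) with all 118 bases inside coding exon sequence of CHPF2. MIR1307 lies at chr10:103394253-103394401 (-), with 142 of its 149 bases in a UTR exon of ATP5MD. The remaining 3 are intronic: MIR32 at chr9:109046229-109046298 (-) in TMEM245, MIR340 at chr5:180015303-180015397 (-) in RNF130, and MIR574 at chr4:38868032-38868127 (+) in FAM114A1. In minimum-energy folds of the hairpins (RNAfold), 16 to 20 base pairs joined the arms. At the 5′ end, the first 4 bases of miR-32-5p and miR-340-5p, the commoner arms of their hairpins, were all paired with 0 G-C pairs among them, while miR-32-3p and miR-340-3p had 1 and 2 G-C pairs. In miR-1307 the commoner 3p arm had 1 G-C pair there and the 5p arm 2. In miR-671 both arms had 2 G-C pairs, with all 4 bases paired in the commoner 3p arm and 3 in the scarcer 5p arm, and in miR-574 both arms also had 2. The end pairing thus did not follow the commoner arm in every hairpin.

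The libraries held between 860400 and 2487000 reads of the listed microRNAs, as recovered from the smallest steps of the deposited values. Group totals were 7059000 in ZSWIM8 KO, 3807000 in WT, 5290000 in sgCYRANO and 5491000 in sgNT. Of 14 cell type markers, 10 were listed in the table of ZSWIM8 KO against WT, where 1 was called higher and 0 lower, and 11 in that of sgCYRANO against sgNT, where 0 were called (authors' deposited tables, edgeR). Of all microRNAs tested, 9.91% were called in ZSWIM8 KO against WT and 0.119% in sgCYRANO against sgNT, so nothing is read from the marker counts. The erythroid markers miR-451a, miR-486-5p, miR-144-3p and miR-210-3p were at 956.3, 13387, 239.1 and 357.3 CPM in ZSWIM8 KO and at 574.5, 14449, 119.4 and 373.5 CPM in WT, and none of them passed. The 1 called was miR-342-3p, from the lymphoid list, at 163.1 CPM in ZSWIM8 KO and 93.7 CPM in WT. The epithelial miR-375-3p was at 49.2 CPM in ZSWIM8 KO and 3.70 CPM in WT without passing (3.69 ± 1.76 in the authors' deposited table), and miR-200c-3p at 87.9 CPM in ZSWIM8 KO and 94.6 CPM in WT. The muscle marker miR-1-3p stayed at or below 1.31 CPM, and the lymphoid miR-150-5p and neural miR-124-3p were not listed. The part of these values in the changes of the 10 strands was not tested. The deposited tables give 1 fold change and 1 test for each microRNA, with no single-library values, so group means are given below and overlap of libraries could not be examined. The table headers do not name the numerator, and the second-named group of each table was taken as the numerator. The ± on a log2 fold change is the standard error that its deposited p-value corresponds to.

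In WT cells the 5 hairpins covered very unequal arm use. miR-1307-3p was the most abundant of the 10 strands at 2228 CPM, 81.6 times its 5p arm at 27.3 CPM. miR-671 also favoured its 3p arm, by 5.04-fold. miR-32 and miR-340 favoured the 5p arm, by 5.89-fold and 2.82-fold. In miR-574 the arms were nearly equal, at 27.1 CPM for 5p and 29.8 CPM for 3p. The sgNT cells had the same order of arms in each hairpin, and the 5p share of the reads of a hairpin differed between WT and sgNT by at most 1.60 percentage points. Levels of single strands agreed less closely. The ratio of WT to sgNT ran from 0.88 for miR-340-5p to 1.38 for miR-671-5p, and was 1.27 for miR-1307-3p.

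**Figure D1:**
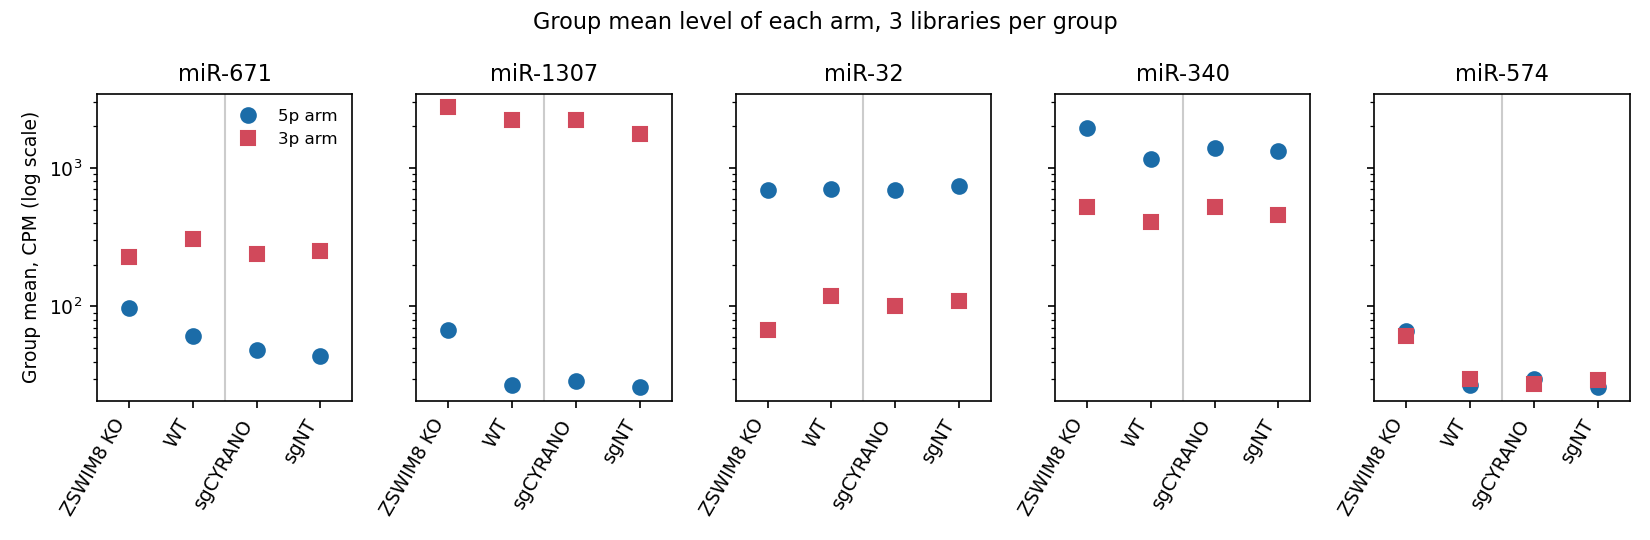
Group mean level in CPM, on a log axis, of the 5p arm (circles) and the 3p arm (squares) of each hairpin in ZSWIM8 KO, WT, sgCYRANO and sgNT, with 3 libraries per group. In miR-671 the arms lie closer together in ZSWIM8 KO than in the other groups, in miR-32 they lie farther apart, and in miR-574 both arms are higher in ZSWIM8 KO.

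Loss of ZSWIM8 was compared with WT to ask which microRNAs depend on this ligase. In the authors' deposited table (edgeR), 6 of the 10 strands were called higher and 2 lower at an adjusted p of 0.05, 8 in all, beside 9.91% of all 868 microRNAs tested, 4.72% higher and 5.18% lower. Among the 304 microRNAs that averaged at least 10 CPM, the range in which all 10 strands lie, 23.0% passed. The hairpins were picked on these values, so nothing is read from the count. The median log2 fold change was 0.51 over the 10 strands and 0.08 over all microRNAs of the table. Calls over the whole table were 41 higher and 45 lower as deposited, and 30 higher and 62 lower relative to the median change of microRNAs at 10 CPM or more, which was 0.13.

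The arms of miR-671 moved in opposite directions. miR-671-5p directs Argonaute cleavage of the circular RNA CDR1as, a binder of miR-7. This strand was at 97.7 CPM in ZSWIM8 KO and 61.1 CPM in WT, with a log2 fold change of 0.68 ± 0.22 in the authors' deposited table (adjusted p = 0.027, edgeR). The 3p arm was at 226.2 CPM in ZSWIM8 KO and 308.0 CPM in WT, with -0.45 ± 0.15 in the authors' deposited table (adjusted p = 0.043, edgeR). The rise of the 5p arm was no longer called relative to the median change (adjusted p = 0.112, normal test), while the fall of the 3p arm was. The 5p arm changed by 1.12 ± 0.27 more than the 3p arm on the log2 scale, or 2.18-fold. The 5p share of miR-671 reads was 30.2% in ZSWIM8 KO (95% interval 28.3 to 32.1) and 16.6% in WT (14.6 to 18.7), where the intervals cover counting error only. The sum of both arms was 323.9 CPM in ZSWIM8 KO and 369.1 CPM in WT, a smaller change than that of either arm. Of the 188 hairpins with both arms in this table, miR-671 was the 1 with both arms called in opposite directions, against 2 with both arms called higher, 5 with both called lower, 33 with 1 arm called and 147 with neither.

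In miR-1307 both arms rose, the scarce one far more. miR-1307-5p was at 67.8 CPM in ZSWIM8 KO and 27.3 CPM in WT, with 1.31 ± 0.27 in the authors' deposited table (adjusted p = 5.51e-05, edgeR). miR-1307-3p was at 2724 CPM in ZSWIM8 KO and 2228 CPM in WT, with 0.29 ± 0.10 in the authors' deposited table (adjusted p = 0.047, edgeR), a call lost relative to the median change (adjusted p = 0.423, normal test). The 5p arm therefore changed by 1.02 ± 0.29 more than the 3p arm on the log2 scale, and its share of the reads of the hairpin was 2.43% in ZSWIM8 KO (2.22 to 2.65) and 1.21% in WT (0.99 to 1.48). Since the 3p arm holds nearly all the reads, the sum of both arms changed by 0.31 on the log2 scale, close to the 3p arm alone.

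In miR-32 the scarcer 3p strand fell, and the change of the 5p strand was within its error. miR-32-3p fell to 67.9 CPM in ZSWIM8 KO, against 118.7 CPM in WT, with -0.80 ± 0.21 in the authors' deposited table (adjusted p = 0.0032, edgeR). miR-32-5p was at 697.0 CPM in ZSWIM8 KO and 699.3 CPM in WT, and its log2 fold change of -0.0048 ± 0.12 in the authors' deposited table had a 95% interval of -0.24 to 0.23. The arms differed by 0.80 ± 0.25 on the log2 scale, and the 5p share was 91.1% in ZSWIM8 KO (90.3 to 91.9) and 85.5% in WT (84.1 to 86.7).

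miR-32-5p shares its seed with the miR-25 and miR-92 strands, whose targets include the pro-apoptotic gene BIM. Of the 4 other strands with this seed that were listed, 2 fell in the authors' deposited table (edgeR). They were miR-25-3p at -0.23 ± 0.08 (adjusted p = 0.046, edgeR) and miR-92a-3p at -0.24 ± 0.07 (adjusted p = 0.0057, edgeR). The other 2 did not pass, with -0.08 ± 0.10 for miR-92b-3p and -1.22 ± 0.56 for the scarce miR-363-3p. Of all 868 microRNAs tested 5.18% were called lower, and of those at 10 CPM or more 23.0% passed in either direction. Nothing is read from the count of 2. miR-92a-3p was at 134670 CPM in ZSWIM8 KO and 159093 CPM in WT, so miR-32-5p is a small part of the reads with this seed. In sgCYRANO these 4 strands had log2 fold changes of -0.73 to 0.12 in the authors' deposited table, and none passed (smallest adjusted p = 0.875, edgeR).

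In miR-340 the commoner arm rose, and the 3p arm had a smaller positive change. miR-340-5p, reported to repress the transcription factor MITF in melanoma cells, was at 1926 CPM in ZSWIM8 KO and 1157 CPM in WT, with 0.73 ± 0.11 in the authors' deposited table (adjusted p = 9.16e-09, edgeR). miR-340-3p was at 522.9 CPM in ZSWIM8 KO and 409.7 CPM in WT, a log2 fold change of 0.35 ± 0.13 that missed the threshold in the authors' deposited table (adjusted p = 0.073, edgeR). With p adjusted over the 304 microRNAs at 10 CPM or more alone, miR-340-3p passed too (adjusted p = 0.031, the authors' edgeR p), so both arms were then called higher. The 5p arm changed by 0.38 ± 0.18 more than the 3p arm on the log2 scale, a 95% interval of 0.04 to 0.73. The 5p share was 78.7% in ZSWIM8 KO (78.0 to 79.3) and 73.9% in WT (72.7 to 75.0).

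Both arms of miR-574 rose to a similar extent. miR-574-5p, a GU-rich strand known to bind the RNA-binding protein CUGBP1, was at 66.9 CPM in ZSWIM8 KO and 27.1 CPM in WT, with 1.30 ± 0.28 in the authors' deposited table (adjusted p = 8.45e-05, edgeR). miR-574-3p was at 60.8 CPM in ZSWIM8 KO and 29.8 CPM in WT, with 1.03 ± 0.27 in the authors' deposited table (adjusted p = 0.0031, edgeR). The difference between the arms was 0.27 ± 0.39 on the log2 scale, with a 95% interval of -0.49 to 1.04, so a difference of up to about the size seen in miR-1307 could not be told from none. The 5p share was 52.4% in ZSWIM8 KO (49.1 to 55.7) and 47.7% in WT (40.8 to 54.7). The sum of both arms was 127.7 CPM in ZSWIM8 KO and 56.9 CPM in WT.

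**Figure D2:**
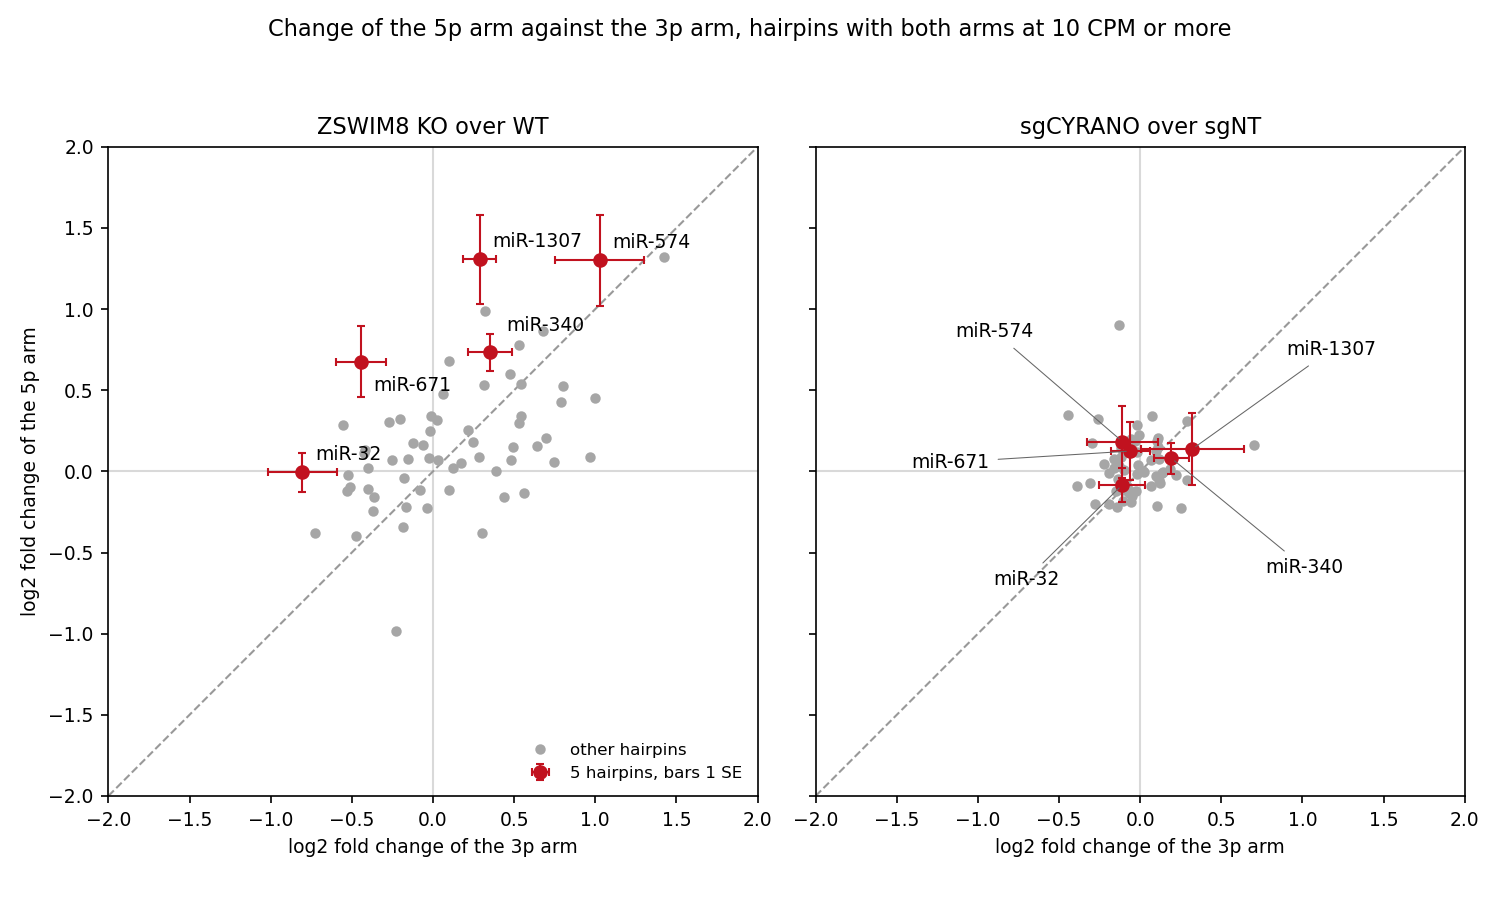
Log2 fold change of the 5p arm (vertical) against that of the 3p arm (horizontal) for hairpins with both arms at 10 CPM or more, for ZSWIM8 KO over WT and sgCYRANO over sgNT; grey points are the other 59 hairpins, red points the 5 hairpins with 1 standard error, and the dashed line marks equal change. In ZSWIM8 KO miR-574 lies within its error of the line and miR-671, miR-1307, miR-32 and miR-340 lie above it, while in sgCYRANO the 5 hairpins lie near the origin.

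Set among the 64 hairpins with both arms at 10 CPM or more in ZSWIM8 KO against WT, the absolute arm difference took rank 1 for miR-671, rank 2 for miR-1307, rank 5 for miR-32, rank 27 for miR-340 and rank 36 for miR-574. The ranks take no account of error. Other hairpins with smaller differences, such as miR-25 (-0.75 ± 0.19) and miR-130b (-0.69 ± 0.17), had smaller errors than miR-671, miR-1307 and miR-32. The median absolute difference of the other 59 hairpins was 0.29 and their highest was 0.88, for miR-425, where the 5p arm had 0.09 ± 0.11 and the 3p arm 0.97 ± 0.33 in the authors' deposited table. The 5p change was above the 3p change in all 5 hairpins and in 37 of the 64. The scarcer arm had the larger absolute change in 3 of the 5 (miR-671, miR-1307 and miR-32) and in 38 of the 64. Relative to the median change, miR-671 left this group (0.55 for its 5p arm and -0.57 for its 3p arm), which gave 2 of the 5 and 42 of the 64. Scarcer arms also have larger errors, and the part of that in the count was not tested.

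For scale, miR-7-5p, the decay substrate the series turns on, was at 23494 CPM in ZSWIM8 KO and 4617 CPM in WT, while miR-7-1-3p was at 25.7 CPM in ZSWIM8 KO and 44.3 CPM in WT. The change of miR-7-5p exceeded that of miR-7-1-3p by 3.13 ± 0.32 on the log2 scale, against 1.12 ± 0.27 for the arms of miR-671. miR-7-5p and miR-7-1-3p do not pair by name, so their difference is not strictly one between the arms of a single hairpin. Among 9 strands listed as reported to be sensitive to ZSWIM8, all measured, 5 rose and 0 fell in ZSWIM8 KO, beside 4.72% of all microRNAs called higher and 5.18% called lower. Apart from miR-7-5p, those that rose were miR-450a-5p, miR-450b-5p, miR-503-5p and miR-542-3p, which lie in the same cluster and are not independent. miR-424-5p of that cluster did not pass, nor did miR-29b-3p, miR-30b-3p and miR-335-3p. The last was scarce, at 1.92 CPM in ZSWIM8 KO and 0.84 CPM in WT. The median log2 fold change of the 9 strands was 0.90, beside 0.08 over all microRNAs. Of microRNAs at 10 CPM or more, 23% passed in either direction. The list was chosen with earlier results of these data known, so nothing is read from its count or median. In sgCYRANO 1 of the 9 rose, miR-7-5p, and 0 fell. None of the 10 strands described here is on that list. In the authors' deposited table of ZSWIM8 KO, log2 fold changes on that list ran from 0.13 ± 0.25 (miR-30b-3p) to 2.35 ± 0.14 (miR-7-5p). Within that range, the rises of miR-450b-5p (1.04 ± 0.20) and miR-542-3p (1.50 ± 0.35) were of the size of those of the miR-574 arms. Whether the miR-574 arms and the listed strands changed for a shared reason was not tested.

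**Figure D3:**
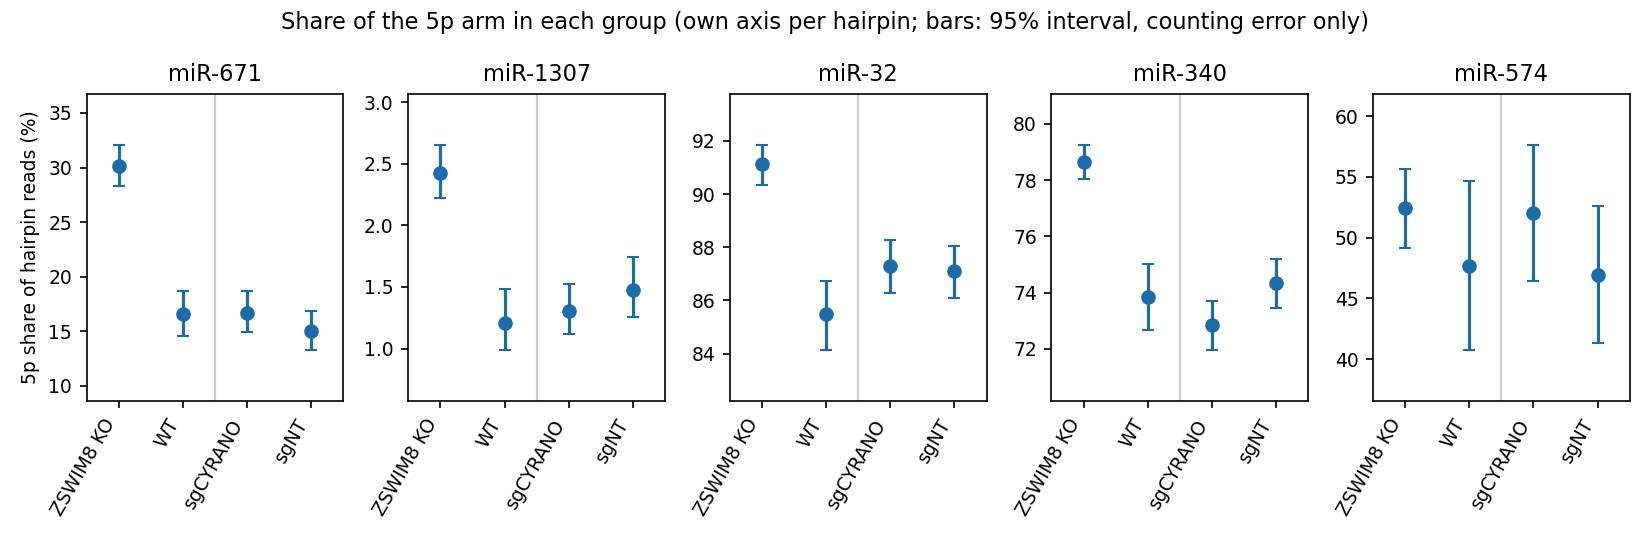
Share of the 5p arm among the reads of both arms, in percent, in ZSWIM8 KO, WT, sgCYRANO and sgNT, with 95% intervals from counting error only and a separate vertical axis, not starting at 0, for each hairpin. For miR-671, miR-1307, miR-32 and miR-340 the ZSWIM8 KO share lies above the 3 other groups, while for miR-574 all 4 intervals overlap.

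The guide against CYRANO was compared with the non-targeting guide to ask which microRNAs depend on this trigger RNA. In the authors' deposited table (edgeR), 0 of the 10 strands passed an adjusted p of 0.05, beside 0.119% of all 837 microRNAs, and 0 had an unadjusted p under 0.05. The log2 fold changes lay between -0.11 and 0.32 in the authors' deposited table, with a median of 0.10 beside 0.01 over all microRNAs. Their adjusted p-values lay between 0.876 and 0.984 (edgeR).

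No arm difference was resolved from 0 in sgCYRANO. The 5p minus 3p difference was 0.19 ± 0.22 for miR-671, -0.18 ± 0.39 for miR-1307, 0.03 ± 0.18 for miR-32, -0.11 ± 0.14 for miR-340 and 0.29 ± 0.31 for miR-574, all on the log2 scale. Every one of these 95% intervals included 0, which does not show that the arms changed alike. The interval of miR-671 was -0.24 to 0.61 in sgCYRANO, and 0.59 to 1.65 in ZSWIM8 KO. That of miR-32 was -0.32 to 0.37 in sgCYRANO and 0.32 to 1.28 in ZSWIM8 KO, so the intervals overlap narrowly in both hairpins. For miR-574 the difference in sgCYRANO took rank 11 of 64 and its interval reached 0.91, while its difference in ZSWIM8 KO was 0.27. The 5p share of miR-671 was 16.7% in sgCYRANO and 15.0% in sgNT, and that of miR-32 was 87.3% in sgCYRANO and 87.1% in sgNT. The share of miR-340-5p was 72.8% in sgCYRANO and 74.3% in sgNT. The share of miR-574-5p was 52.1% in sgCYRANO and 46.9% in sgNT, a shift of 5.11 percentage points beside one of 4.74 in ZSWIM8 KO against WT, with overlapping counting intervals in both. Whether the arm differences differ between the comparisons was not tested.

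Single strands had levels in sgCYRANO near those in sgNT. miR-671-5p was at 48.2 CPM in sgCYRANO and 44.2 CPM in sgNT, and miR-32-3p at 101.1 CPM in sgCYRANO and 109.2 CPM in sgNT. miR-1307-5p was at 29.0 CPM in sgCYRANO and 26.4 CPM in sgNT, and miR-574-5p at 29.8 CPM in sgCYRANO and 26.2 CPM in sgNT. The 5p strands of miR-1307 and miR-574 were thus at 67.8 and 66.9 CPM in ZSWIM8 KO, and between 26.2 and 29.8 CPM in sgCYRANO, WT and sgNT. Levels were set to library totals separately in each table, so levels across tables are given side by side without a test.

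miR-1307-3p stood apart in its error. It was at 2195 CPM in sgCYRANO and 1757 CPM in sgNT, and its log2 fold change of 0.32 ± 0.32 in the authors' deposited table was slightly above the 0.29 ± 0.10 that was called in ZSWIM8 KO. Taken from the deposited F, as are all errors set against neighbours here, its error was 0.28. This was 2.97 times the median of the 30 microRNAs nearest in abundance. In that comparison 6 of 299 microRNAs at 10 CPM or more exceeded 2 times. The other 9 strands had errors between 0.98 and 1.01 times those of their neighbours in abundance. F and p together corresponded to 4.13 denominator degrees of freedom for miR-1307-3p, and were also low for miR-1307-5p (6.36), miR-574-3p (6.29) and miR-574-5p (8.10), as for 30.4% of microRNAs at 10 CPM or more that fell under 20. For the other members they were near 3348. In ZSWIM8 KO against WT all 10 strands, miR-1307-3p included, had errors of 0.94 to 1.02 times those of their neighbours, with implied degrees of freedom near 164. Their errors there reflect a variance shared across microRNAs, and do not show the spread of each strand over its own libraries. Read with 4 denominator degrees of freedom, what 3 libraries a group leave, the deposited F values would call 0 of the 10 strands in ZSWIM8 KO. These F values rest on the shared variance, so 4 is not the number they were tested with. The share of all microRNAs called on that reading is not given here, so nothing is read from the 0 about these strands.

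**Figure D4:**
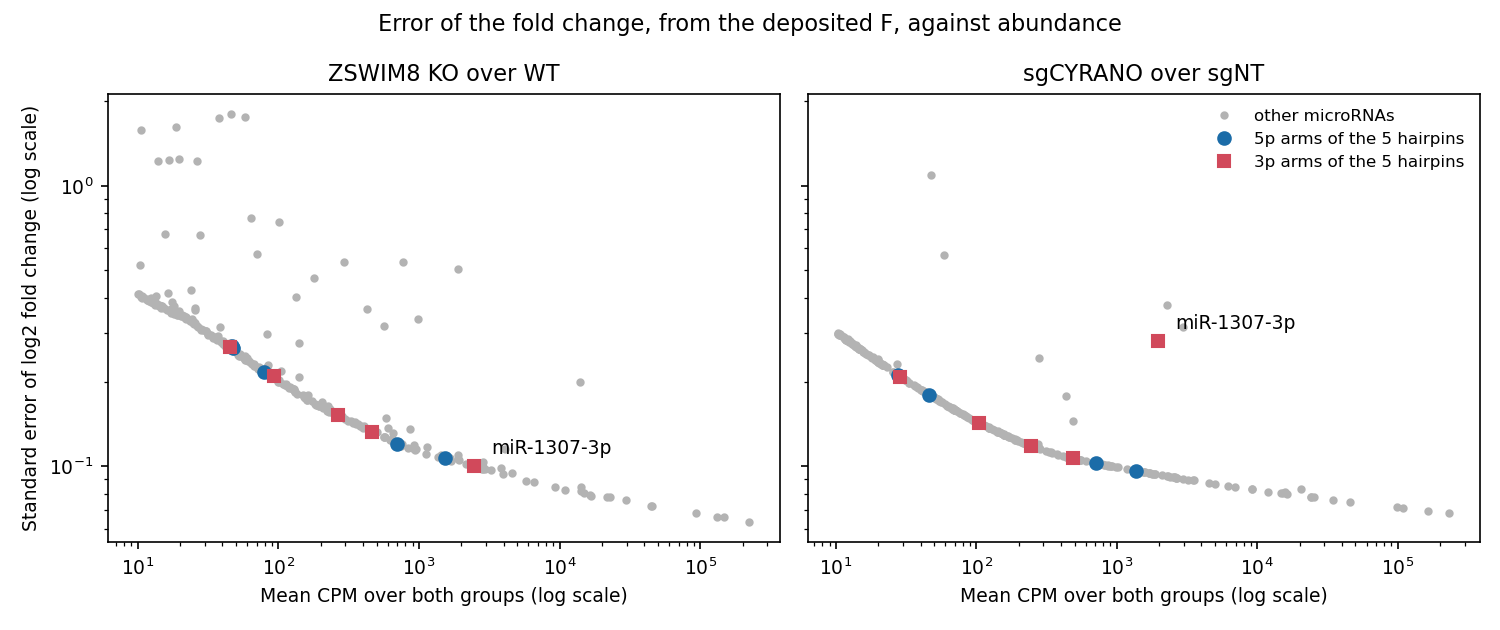
Standard error of the log2 fold change, from the deposited F, against mean CPM over both groups, both on log axes, for microRNAs at 10 CPM or more; the 5p and 3p arms of the 5 hairpins are coloured. All members lie on the common trend in ZSWIM8 KO over WT, and miR-1307-3p lies 2.97 times above its neighbours in sgCYRANO over sgNT.

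By Euclidean distance over 4 log2 fold changes, those of the 5p and 3p arms in both comparisons, each hairpin was set against the others among 62 with both arms at 10 CPM or more in both tables. The nearest to miR-671 was miR-424 (distance 0.44), whose 5p arm had 0.31 ± 0.25 and 3p arm -0.27 ± 0.35 in ZSWIM8 KO in the authors' deposited table, neither of which passed. The nearest to miR-32 was miR-125a (0.29), with -0.02 ± 0.12 for the 5p and -0.53 ± 0.28 for the 3p arm. The nearest to miR-340 was the mirtron miR-877 (0.21), and the nearest to miR-1307 was miR-340 (0.59). The nearest to miR-574 was miR-30d (0.57), with 0.86 ± 0.09 for its 5p arm at 38430 CPM in ZSWIM8 KO and 21115 CPM in WT, and 0.68 ± 0.24 for its 3p arm.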

How the data were processed

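The authors used bcl2fastq, FastQC 0.11.2, STAR, featureCounts, edgeR and hg19, per the submitters' processing notes, which give no roles. Per the labels' protocols, libraries were made with an NEBNext small-RNA kit. The files used are the authors' deposited comparison tables. Per the file headers, they hold a log2 fold change, a mean log2 CPM, an F score, a p-value and an adjusted p-value for each microRNA. Values of single libraries were not used here, so the fits set for counts were not run.

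Group means were recovered by inverting the mean log2 CPM (prior count 2) and the log2 fold change (prior count 0.125), and summed to 1000000 in each group. The fit was thus given values scaled to library totals. Library totals came from 3 CPM steps per group, which accounted for all 170, 185, 150 and 160 low values below 0.75 CPM in ZSWIM8 KO, WT, sgCYRANO and sgNT. Counting intervals assume equal CPM in the libraries of a group. A standard error is the deposited log2 fold change divided by the z value of its p. The errors of both arms were combined as independent for an arm difference. Hairpins were paired by name. The inversion and intervals were run on simulated data made with the same prior counts, a known variance and arms drawn independently. That run checked the code only. It tested neither the shared variance of the deposited fits nor the independence of the arms. Folds were made with RNAfold 2.7.2, and other steps with Python 3.11.15 and scipy 1.17.1.

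The members and lists were chosen with earlier results of these data known. The strands named are all members, listed strands sharing a seed at 10 CPM or more (miR-363-3p, below that in ZSWIM8 KO against WT, was added to complete the 4), miR-7, the nearest hairpin to each of the 5, and the largest arm differences. Alternatives were other call thresholds, a 10 CPM filter, centring, no prior count, errors from F and 0.5 CPM added to arm ratios.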

Additional observations from a re-analysis of the deposited data

How the results depend on the processing

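No paired analysis was possible because the tables hold fold changes and tests of whole groups and no values of single libraries, and for the same reason no replicate was left out in turn. All 30 alternative values of arm differences and arm ratios (no prior count, or 0.5 CPM added) stayed within 1 standard error of the reported ones, and centring cancels in an arm difference. All 10 strands lay at 26.2 CPM or more in every group, where such small additions can hardly move a value. The 30 values were thus bound to stay close, and do not test the arm differences. Under centring, 12 of 16 values of strands called as deposited kept their direction and call and 4 lost the call: miR-671-5p (0.55 on the median, 0.53 on a trimmed mean) and miR-1307-3p (0.16 and 0.14), in ZSWIM8 KO against WT. At an adjusted p of 0.01 the members called in that comparison came to 4 higher and 1 lower, without both arms of miR-671 and miR-1307-3p. Adjusted over microRNAs at 10 CPM or more they came to 7 higher, with miR-340-3p added, and 2 lower. With p taken from F at only 4 denominator degrees of freedom, 0 members were called higher and 0 lower. The variance behind F was pooled over microRNAs, so this count says nothing of the own spread of a strand. For the 0.01 threshold, the 10 CPM adjustment and the 4 degrees of freedom, the shares of all microRNAs called are not given here. Nothing is therefore read from the member counts under them. WT had the fewest reads, which limits the strands near 27 CPM most. The direction of both tables rests on the order of group names. With that order miR-7-5p, whose decay CYRANO triggers, was higher in ZSWIM8 KO (2.35 ± 0.14) and in sgCYRANO (2.52 ± 0.09).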
